A study of Drosophila melanogaster with 6 samples.

Results

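The Dpp/BMP signalling genes are 9 Drosophila melanogaster genes that carry or report the Decapentaplegic signal: dpp, gbb, tkv, sax, put, Mad, Med, Dad and brk. They were taken by gene name from the RefSeq tables of 6 ovary tiling arrays, and each gene was represented by its brightest transcript row over the 6 arrays. All 9 were found, among 14012 gene names with a value, and all 9 stood above the floor of 1 on every array. Only 166 to 223 of 20765 transcript entries were at that floor on an array, so this does not set the 9 apart. RNA came from dissected ovaries of yeast-fed flies, 3 arrays labelled uap56 and 3 labelled vasa. UAP56 is a DEAD-box helicase of mRNA export encoded by Hel25E, and Vasa is a germline DEAD-box helicase. The labels name no allele, age or genotype beyond these words, and no control ovaries were analysed here. Every difference is therefore one between uap56 and vasa, and it is unknown which of them departs from a normal level.

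BMP ligands bring together type I and type II serine/threonine kinase receptors, the type II kinase activates the type I kinase, and that kinase phosphorylates the Smad protein Mad. Phosphorylated Mad enters the nucleus with its partner Med and acts on target genes. In the fly ovary, Dpp and Gbb from the somatic niche at the tip of the germarium keep germline stem cells undifferentiated by silencing bam, and Dpp from anterior follicle cells later patterns the follicular epithelium. In tissues such as the wing disc and the follicular epithelium, signalling switches on Dad, an inhibitory Smad, and switches off brk, a repressor of Dpp targets.

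The arrays give an intensity for each transcript, a linear brightness that the authors had summarised and normalized. Median intensity over transcripts lay between 163 and 184 on the 6 arrays. Different probes shine differently, so levels are compared between arrays for 1 gene and not between genes. Differences below are log2 uap56 minus vasa, fitted over all genes with limma using an intensity trend and robust variance estimates, with Benjamini-Hochberg adjusted p-values, a threshold of 0.05 and 95% intervals. A fold is the fitted log2 difference put on the linear scale, and so can differ from the ratio of the means. The labels do not say whether the 3 arrays of a group came from separate animals, so p-values measure the spread between these arrays, which may be technical. The number of arrays limits the precision. As a check of the labels, vas stood at 1698 ± 341 in uap56 and 297.3 ± 75.1 in vasa (SD, n = 3 each), and Hel25E at 1419 ± 326 and 1610.3 ± 192. The Hel25E arrays overlapped (-0.20, adjusted p = 0.644 in limma), so the Hel25E values leave the uap56 label unchecked. The ovary labels were set against 8 germline markers and 8 follicle cell markers, none of which was at the floor on any array. This does not check the tissue, since only 166 to 223 of 20765 entries were at the floor on an array. Muscle, fat body, hemocyte and neuron markers were not at the floor either. The germline markers summed to between 13445 and 16907 in uap56 and between 13751 and 16427 in vasa. The brightest markers weigh most in these sums. They also include vas, the gene of 1 of the labels, so they do not compare germline content apart from the vas difference. Single germline markers did differ, with vas and nos past the threshold toward uap56 and ovo toward vasa. The median difference of the 8 was -0.48, and 5 of the 8 had an unadjusted p under 0.05 toward vasa, against 7.3% of all genes. The follicle cell markers summed to between 65424 and 83756 in uap56 and between 60406 and 69469 in vasa, with a median difference of -0.08 and 1 call, the chorion gene Cp15 toward uap56. The part of these markers in the differences below was not tested. The RNA is of whole ovaries, so fewer cells of a type and less RNA per cell cannot be told apart.

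None of the 9 genes passed the threshold of the limma fit, in either direction. Over all 14012 genes the share that passed was 3.6%, of which 2.39% were higher in uap56 and 1.21% in vasa. Before adjustment, p was under 0.05 for 3 of the 9, brk, Mad and sax, all toward uap56, where all genes gave 10.6% in that direction and 17.9% in both. Without the trend and robust options, limma also called 0 of the 9, against 0.0143% of all genes. In that fit 1 of the 9, brk, had an unadjusted p under 0.05, against 15.0% of all genes. For brk and Mad every uap56 array was above every vasa array, as for 13.3% of all genes, while 23.4% of genes were without overlap in either direction. The largest difference of the 9 was that of brk, at 0.79 toward uap56, and the 9 differences ran from -0.15 for Dad. Of the 9, 6 were above 0 and 3, dpp, tkv and Dad, were below, against 51.3% of all genes above 0. Their median was 0.23, where the median of all genes was 0.02 and the middle 50% of genes lay between -0.32 and 0.36. The 95% interval lay within a 2-fold difference either way for 8 of the 9, and only that of brk reached beyond it.

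**Figure D1:**
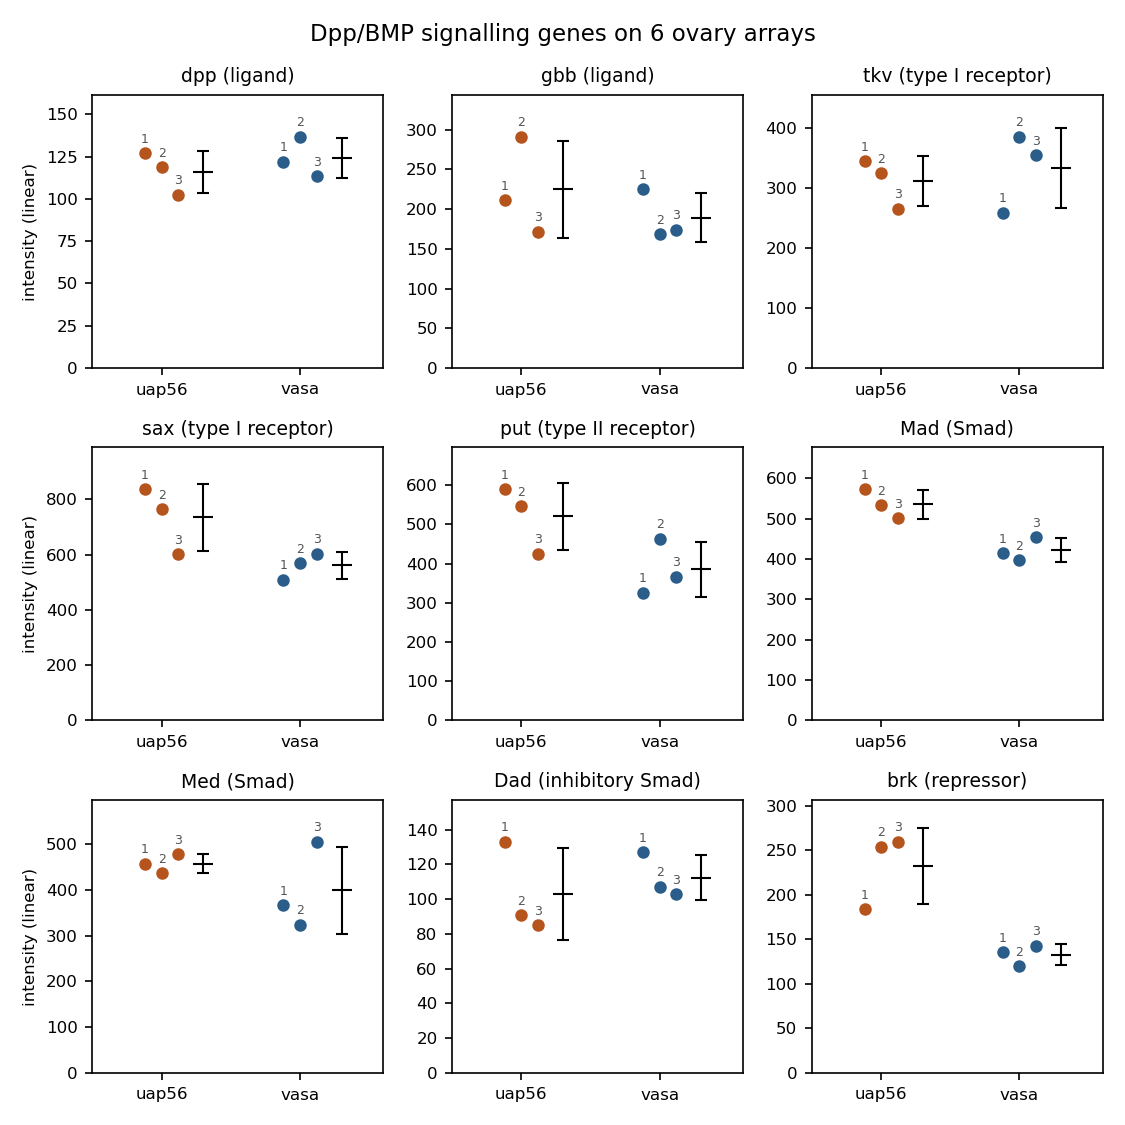
Linear intensity (vertical axes, starting at 0) of each of the 9 Dpp/BMP genes on the 3 uap56 arrays (orange) and the 3 vasa arrays (blue), numbered by replicate, with the mean and SD in black. The groups are apart for brk and Mad and share part of their range for the other 7 genes.

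**Figure D2:**
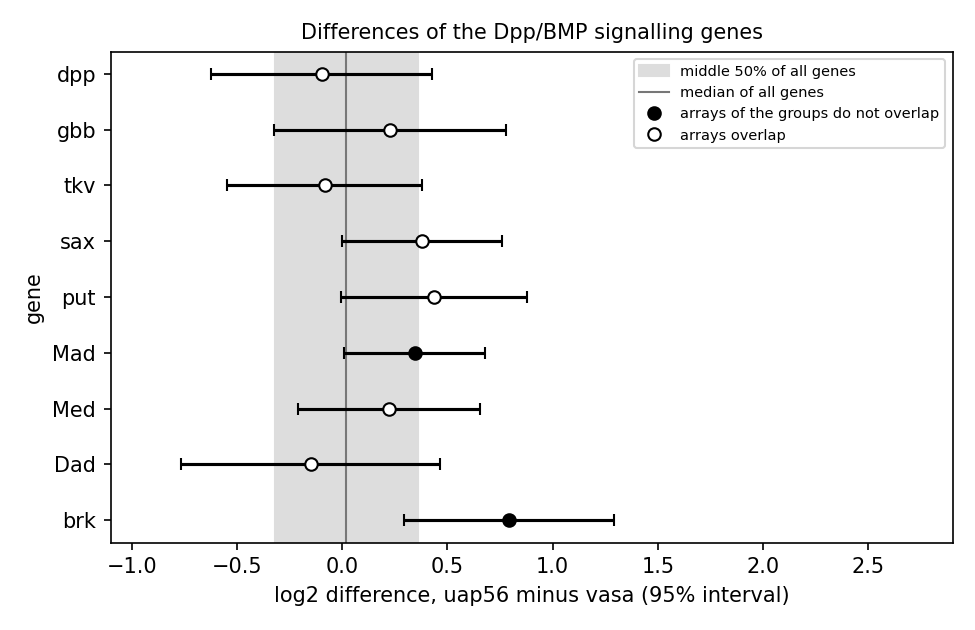
Log2 difference, uap56 minus vasa (horizontal axis), of each Dpp/BMP gene with its 95% interval from the limma fit. Filled points mark brk and Mad, whose arrays do not overlap, and the grey band holds the middle 50% of all genes, from -0.32 to 0.36.

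Neither ligand gene differed beyond the spread of its arrays. The gene dpp encodes the BMP2/4-type ligand that is the main niche signal, and its brightest row read 127, 119 and 103 on the uap56 arrays and 122, 137 and 114 on the vasa arrays. These ranges overlap over most of their width. The difference was -0.10 ± 0.23 (SE), with an interval from -0.62 to 0.43 and an adjusted p of 0.877 in limma. The gene gbb, which encodes a BMP5/6/7-type ligand that acts with Dpp in the niche, read 211, 291 and 172 in uap56 and 225, 169 and 174 in vasa. Replicate 2 of uap56 was the highest of the 6, and the other uap56 arrays fell within the vasa range. The gbb difference was 0.23 ± 0.24 (SE), with an interval from -0.33 to 0.78 and an adjusted p of 0.696.

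Among the receptors, the differences of sax and put were above 0 and that of tkv was near 0. The gene tkv encodes the main type I receptor for Dpp. It read 344, 325 and 265 in uap56 and 258, 385 and 354 in vasa, so that the highest and the lowest of the 6 values were both vasa arrays. Its difference was -0.08 ± 0.21 (SE, adjusted p = 0.882), with an interval from -0.55 to 0.38, and it was 0.03 both without uap56 replicate 3 and without vasa replicate 2. The gene sax encodes the other type I receptor, which binds Gbb well. It read 837, 765 and 602 in uap56 and 510, 569.8 and 604 in vasa. The groups met at a single pair, with uap56 replicate 3 just below vasa replicate 3. The sax difference was 0.38 ± 0.17 (SE, adjusted p = 0.279), or 1.30-fold, with an interval from 0.00024 to 0.76. The gene put encodes the type II receptor of the pathway, and it read 590.2, 547 and 425 in uap56 and 326, 463 and 367 in vasa. Here too uap56 replicate 3 was the only array of its group inside the vasa range. The difference of put was 0.44 ± 0.20 (SE, adjusted p = 0.283), or 1.35-fold, with an interval from -0.0034 to 0.88.

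Of the Smads that carry the signal, Mad was one of the 2 genes whose groups were apart. Mad, the Smad that the receptors phosphorylate, read 573, 533 and 502 in uap56 and 414, 398 and 455 in vasa. All uap56 values lay above all vasa values, and the spread within groups was the smallest of the 9 genes, with an SD of 0.10 on the log2 scale. The difference was 0.34 ± 0.15 (SE), or 1.27-fold, with an interval from 0.01 to 0.68, an unadjusted p of 0.0444 and an adjusted p of 0.264 in limma. Med, the common partner Smad, read 457, 437 and 478 in uap56 and 367, 324 and 505 in vasa. Its uap56 arrays were close together, while vasa replicate 3 was the highest of the 6 and the other vasa arrays the lowest. The Med difference was 0.22 ± 0.19 (SE, adjusted p = 0.608), with an interval from -0.21 to 0.65.

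The readouts of the pathway are Dad and brk. Dad, the inhibitory Smad gene that Dpp signalling switches on, read 133, 90.8 and 84.9 in uap56 and 127, 107 and 103 in vasa. Replicate 1 was the highest array of each group, and the vasa range lay inside the uap56 range. The Dad difference was -0.15 ± 0.27 (SE, adjusted p = 0.831), with an interval from -0.76 to 0.46. For brk, the gene of the Dpp-repressed repressor, the values were 184, 254 and 259.5 in uap56 and 136, 120 and 143 in vasa. The groups were apart, with the lowest uap56 array, replicate 1, above the highest vasa array. Means were 232 ± 42.2 in uap56 and 132.8 ± 11.9 in vasa (SD, n = 3 each), and the fitted difference was 1.73-fold. The log2 difference of brk was 0.79 ± 0.22 (SE), with an interval from 0.29 to 1.29, an unadjusted p of 0.00565 and an adjusted p of 0.0898 in limma. It lay above the differences of 90.97% of all genes. Without the trend and robust options the adjusted p of brk was 0.199, and over all alternatives it ran from 0.061 to 0.266, so the call was not made under any of them.

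Because Dad and brk answer the signal in opposite directions, their ratio within an array was also taken, which cancels any scaling that an array applies to all genes alike. The log2 ratio of Dad to brk, with the mean of the 6 arrays set to 0, was 0.25, -0.77 and -0.90 on the uap56 arrays and 0.62, 0.56 and 0.24 on the vasa arrays. Both groups met at 1 pair, uap56 replicate 1 and vasa replicate 3, and the other uap56 arrays lay below all vasa arrays. The groups differed by -0.94 in this ratio, of which the greater part is brk, since the Dad difference alone was -0.15. The ratio of tkv to brk was 0.04, -0.51 and -0.84 in uap56 and 0.06, 0.82 and 0.44 in vasa, and so was apart only by the gap between both replicates 1. The ratio of Dad to tkv, without brk, differed by -0.07 with overlapping arrays. No test is given for these ratios, as they combine members of 1 list.

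**Figure D3:**
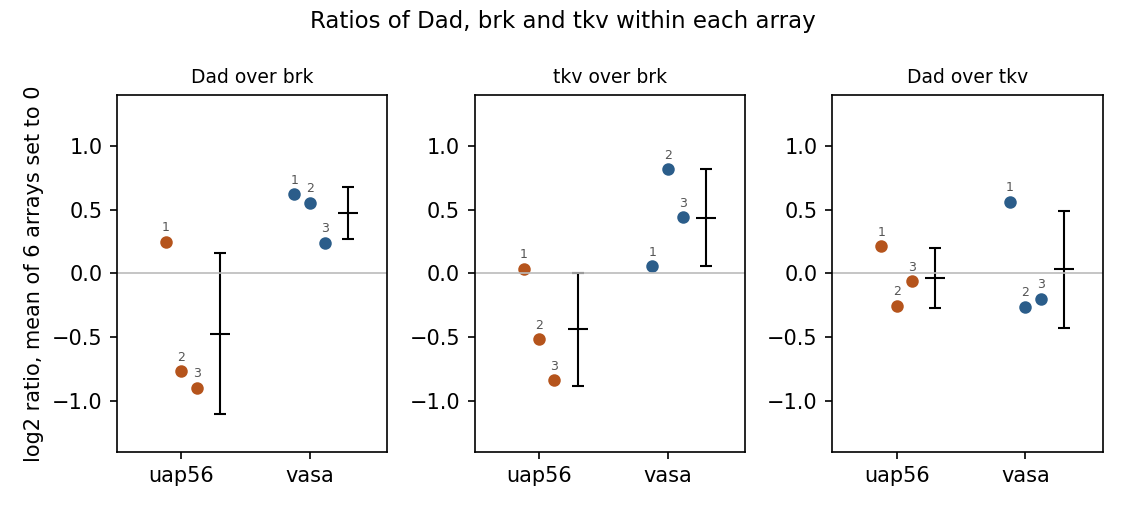
Log2 ratio of 2 genes within each array (vertical axes, with the mean of the 6 arrays set to 0) for Dad over brk, tkv over brk and Dad over tkv, with uap56 in orange, vasa in blue, replicate numbers beside the points and mean with SD in black. The ratios that contain brk have lower means on the uap56 arrays, by -0.94 for Dad over brk and -0.88 for tkv over brk, and the ratio without brk differs by -0.07.

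Across the 6 arrays Pearson's r of log2 intensity was highest for sax with Mad and sax with put (0.90 each), followed by Mad with brk (0.78), put with Mad (0.72) and Mad with Med (0.69). These are descriptions over 6 arrays that share a normalization and 2 groups. The lowest values were those of dpp with Med (-0.74) and with brk (-0.65). For tkv r was 0.61 with dpp, 0.47 with put, 0.36 with sax and -0.03 with Mad. The median of the 9 genes, centred per gene, was 0.11, 0.17 and -0.08 on the uap56 arrays and -0.21, -0.16 and -0.08 on the vasa arrays. The 3rd uap56 array was thus at the level of the 3rd vasa array. Without uap56 replicate 3 the median difference of the 9 genes was 0.39, and without vasa replicate 3 it was 0.40.

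For each of the 9, the gene of most similar pattern over the 6 arrays was looked for among genes above the median brightness. The values of r are the highest among about 7005 genes on 6 points, where high values are common, and they are given as descriptions. The closest gene was Rsf1 for dpp (r = 0.98), CG3893 for gbb (0.99), CG6051 for tkv (0.99), CG5805 for sax (1.00) and Idgf4 for put (0.99). It was Wsck for Mad (0.996), Cka for Med (0.96), Dhh1 for Dad (0.97) and Jafrac1 for brk (0.99). For the mean of the 9 genes the closest were CG4570 (0.997), CG5805 (0.99) and Vha100-2 (0.98).

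The 9 genes have 20 transcript rows in the tables, 5 for dpp, 4 for tkv, 3 for Dad, 2 each for sax and Med, and 1 each for gbb, put, Mad and brk. Fitted on their own, 0 of the 20 rows passed limma's adjusted threshold, against 5.09% of 20765 rows, and 5 had an unadjusted p under 0.05, against 19.5% of all rows. The rows of a gene are not independent, since transcripts share exons, and 2 of the Dad rows had the same value on every array. All rows of a gene had the same sign. The dpp rows ran from -0.33 to -0.02, the tkv rows from -0.26 to -0.08 and the Dad rows from -0.15 to -0.13. Those of sax were 0.38 and 0.39, and those of Med 0.22 and 0.25.

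The proportion of a gene's rows was also compared, a comparison chosen after the values had been seen. Groups were apart in the ratio of the dimmest to the brightest row for 1 of 5 Dpp/BMP genes, tkv, and for 13.8% of the 3276 genes with at least 2 different rows above the floor, so the count is no result about these genes. The dimmest row of tkv, NM_175978, stood at 71.6, 70.2 and 77.5% of its brightest, NM_175975, on the uap56 arrays and at 81.7, 85.3 and 79.999% on the vasa arrays. All vasa arrays lay above all uap56 arrays, with means of 73.1% ± 3.87 and 82.3% ± 2.69 (SD, n = 3 each). Because these groups are apart, an exact permutation test could only give a two-sided p of 0.10, the smallest for 3 against 3 arrays. It therefore adds no support. The other 4 ratios overlapped, with p from 0.4 for Med to 0.9 for Dad in the same test. For dpp the share was 76.8, 46.3 and 71.7% in uap56 and 76.8, 78.7 and 68.3% in vasa, so that its low mean in uap56 came from replicate 2. For sax, Med and Dad the group means differed by less than their SD.

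**Figure D4:**
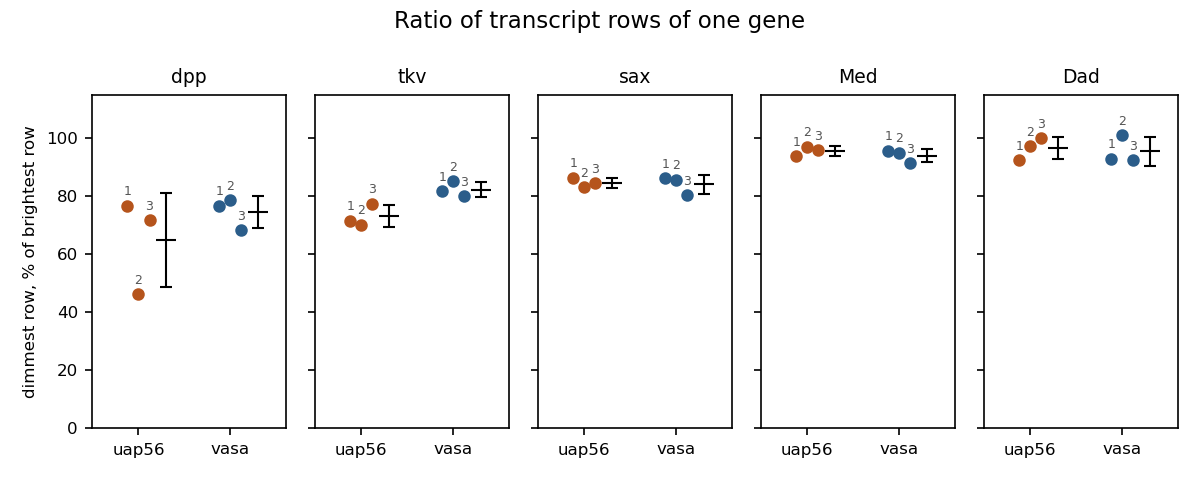
Intensity of the dimmest transcript row as a percentage of the brightest row of the same gene (vertical axis, starting at 0) for the 5 Dpp/BMP genes with more than 1 row, on the 3 uap56 arrays (orange) and 3 vasa arrays (blue), with mean and SD in black. The groups are apart for tkv, at 73.1% against 82.3%, and overlap for dpp, sax, Med and Dad.

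Other genes of TGF-beta signalling, with regulators and targets, were taken from lists of 52 genes, all of which were measured. The lists are broad, and they include nos, which is also among the germline markers. Of these, 2 were higher in uap56, 2 were higher in vasa and 48 did not pass, so that 7.69% were called where all genes gave 3.6%. Their median difference was -0.13. The calls were myo and Smox toward vasa and sog and nos toward uap56, and they were sensitive to single arrays. Of the 52 genes, 1 was called without vasa replicate 1, and 0 without uap56 replicate 2, uap56 replicate 3, vasa replicate 2 or vasa replicate 3. Without the trend and robust options 0 of the 52 were called by limma. In the reported fit 14 of the 52 had an unadjusted p under 0.05, against 17.9% of all genes.

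The ligand list held the Activin-type and other TGF-beta ligands. Of 5, 1 was higher in vasa and 0 were higher in uap56, where all genes gave 1.21% and 2.39%. All vasa arrays were above all uap56 arrays for 3 of the 5, against 10% of all genes. The median was -0.85. The gene myo encodes Myoglianin, a ligand of the Activin branch, which signals through the receptor Baboon and the Smad Smox rather than through Mad. It read 161, 139 and 108 in uap56 and 263, 278 and 269.7 in vasa. The groups were far apart and the vasa arrays close together, a 2.01-fold difference toward vasa (-1.01 ± 0.21 SE, adjusted p = 0.0382 in limma). Also without overlap, but not past the threshold, were the Activin-type ligand gene daw, at 80.4 ± 26.5 in uap56 and 172 ± 31.4 in vasa (-1.15, adjusted p = 0.0888), and the ligand gene mav (-0.85, adjusted p = 0.162). The BMP ligand gene scw had 1.44 (adjusted p = 0.337), from weak signals of 49.6 ± 17.9 and 23.6 ± 20.8 that overlapped, and 0.82 with a pseudocount of 16.

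All 3 genes of the list of other receptors and Smads were below 0 with arrays that did not overlap, and 1 of them passed, where all genes gave 10% without overlap and 1.21% called in that direction. Smox, the Smad of the Activin branch, read 358, 313 and 223 in uap56 and 487, 579 and 663 in vasa. The highest uap56 array stayed below the lowest vasa array, and the difference was 1.96-fold toward vasa (-0.97 ± 0.21 SE, adjusted p = 0.0428). The type I receptor gene babo stood at 399 ± 73.9 in uap56 and 558 ± 54.0 in vasa (-0.50, adjusted p = 0.193), and wit, the gene of a type II receptor that carries BMP signals in neurons, at 62.4 ± 13.6 and 84.3 ± 5.46 (-0.46, adjusted p = 0.483). The BMP-side values went both ways, with 0.34 for Mad, 0.38 for sax, -0.08 for tkv and -0.46 for wit. The BMP ligand genes dpp and gbb had -0.10 and 0.23, and put, which serves both branches, had 0.44. A difference between the branches was not tested. The calls of myo and Smox each remained in 1 of 6 fits that left out an array, the one without uap56 replicate 1, and their adjusted p over all alternatives ran from 0.0242 to 0.151 and from 0.0221 to 0.194.

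Among 16 extracellular regulators 1 was higher in uap56 and 0 were higher in vasa, where all genes gave 2.39% and 1.21%. The median was -0.0044. The gene sog encodes Short gastrulation, a BMP-binding protein that keeps ligands from their receptors and carries them away from their source. It read 194, 194.5 and 166 in uap56 and 75.5, 99.1 and 90.2 in vasa, with wide space between the groups, a 2.10-fold difference (1.07 ± 0.23 SE, adjusted p = 0.0404). That call was made in 0 of the 6 fits without an array, and its lowest difference under any alternative was 0.95. Fs, the gene of Follistatin, which binds Activins, stood at 177 ± 10.4 and 99.8 ± 22.2 (0.85, adjusted p = 0.100), and dally, the gene of a heparan sulfate proteoglycan that holds Dpp at the cell surface, at 165 ± 38.2 and 302 ± 58.1 (-0.88, adjusted p = 0.0774). The gene of a collagen IV chain, vkg, whose product binds Dpp, read 299.7, 194 and 123 in uap56 and 819, 252 and 537 in vasa (-1.32, adjusted p = 0.178). Of 5 fat body markers, apolpp ran like vkg over the arrays, at 386, 281 and 115.5 in uap56 and 832.5, 198 and 419 in vasa. The others did not follow vkg in both groups. In uap56 Lsp2 read 113, 277 and 121, Lsp1beta 79.6, 81.5 and 80.4, and Fbp2 39.6, 27.5 and 59.7. Fbp1 followed vkg in uap56, at 89.4, 77.0 and 68.9, but not in vasa, at 99.1, 90.6 and 71.1. None of the 5 fat body markers passed the threshold of limma, where all genes gave 3.6%. An unadjusted p under 0.05 was found for 1 of them, where all genes gave 17.9%. None of these markers stood at the floor, and their sum ran from 446 to 744 in uap56 and from 588 to 1504 in vasa. Their part in the vkg values was not tested.

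Among 17 intracellular regulators 1 was higher in uap56 and 0 were higher in vasa, where all genes gave 2.39% and 1.21%. The median was -0.03. The gene nos encodes Nanos, a translational repressor needed in germline stem cells, and read 5327, 5941 and 5469 in uap56 and 3386, 3758 and 3220.4 in vasa. The groups were apart, at 1.62-fold (0.69 ± 0.12 SE, adjusted p = 0.0177 in limma), and the call remained without uap56 replicate 1 and without vasa replicate 1. Over all alternatives its adjusted p ran from 0.0111 to 0.169. Of the other germline markers, vas had 2.52 and zpg 0.05 (adjusted p = 0.930 in limma), while the rest had the opposite sign. These were ovo at -0.74 (adjusted p = 0.0444 in limma), and osk at -0.53, otu at -0.53, orb at -0.49 and aub at -0.48, which did not pass. Among these markers, otu, orb, aub and zpg were named after their values were seen. Ote, the gene of the nuclear envelope protein Otefin, which joins Med in silencing bam, stood at 715 ± 75.2 in uap56 and 468 ± 42.7 in vasa (0.61, adjusted p = 0.0678). The gene of the corepressor CtBP, a partner of Brk, had 0.32 (adjusted p = 0.230). The gene shn, whose product works with Mad and Med to silence brk, had -0.44 (adjusted p = 0.272), with 363 ± 55.3 in uap56 and 494 ± 85.1 in vasa and overlapping arrays. For brk itself, whose values are given above, the difference had the opposite sign. Neither shn nor brk passed the threshold, and a link between them was not tested.

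None of 11 target genes passed limma's threshold, where all genes gave 3.6%. An unadjusted p under 0.05 was found for 1, bun, toward vasa, where all genes gave 7.3% in that direction. The median of the 11 was -0.13, with 5 above 0, against 51.3% of all genes. The list was not split by whether signalling switches a target on or off, so this median does not measure signalling. The stem cell target bam, which Mad and Med silence and which drives cystoblasts into differentiation, read 161, 133 and 137 in uap56 and 170, 183.5 and 163 in vasa. Its groups lay side by side without overlap, and the difference was -0.27 ± 0.21 (SE, adjusted p = 0.561). The Dpp-responsive follicle cell gene bun stood at 436 ± 35.5 in uap56 and 626 ± 78.0 in vasa (-0.52, adjusted p = 0.123), the follicle cell patterning gene br at 312 ± 55.6 and 367 ± 7.40 (-0.25, adjusted p = 0.532) and pnr at 57.9 ± 7.90 and 42.2 ± 11.5 (0.48, adjusted p = 0.537). For 5 target genes all vasa arrays were above all uap56 arrays, and for 1 the reverse held, where all genes gave 10% and 13.3%.

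**Figure D5:**
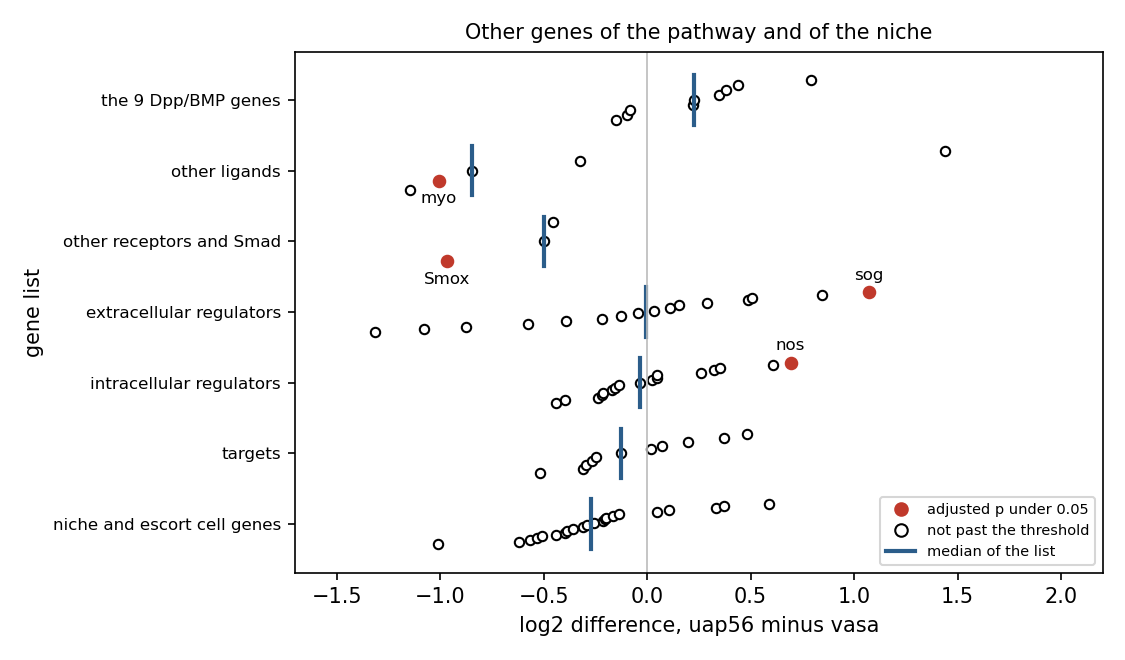
Log2 difference, uap56 minus vasa (horizontal axis), of every measured gene in the list of 9 and in the lists of other pathway and niche genes (rows), with genes past an adjusted p of 0.05 in red and list medians as blue bars. The 4 calls are myo and Smox toward vasa and sog and nos toward uap56, and none of the 9 Dpp/BMP genes or the 22 niche genes is among them.

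The niche itself is a small part of the ovary, and its genes were also read. The list of 22 niche and escort cell genes includes zpg, which is also among the germline markers. Of the 22, 0 passed limma's threshold, where all genes gave 3.6%. An unadjusted p under 0.05 was found for 2, dome and Egfr, both toward vasa, where all genes gave 7.3% in that direction. The median was -0.27, and 5 of the 22 were above 0, against 51.3% of all genes. Of the genes that mark terminal filament and cap cells, the transcription factor gene en read between 43.8 and 101 in uap56 and between 36.0 and 60.5 in vasa, and hh, the gene of the Hedgehog signal, between 27.5 and 42.0 and between 27.1 and 49.2. The lamin gene LamC, also a marker of these cells, read between 156 and 281 in uap56 and between 225 and 296 in vasa. The ranges of all 3 overlapped, and the 3 were chosen after their values were seen. The JAK-STAT receptor gene dome stood at 298 ± 61.5 in uap56 and 453 ± 53.1 in vasa (-0.62, adjusted p = 0.138), and Stat92E, the transcription factor of that pathway, at 537 ± 124 and 693 ± 94.7 (-0.39, adjusted p = 0.369). The Yb body gene fs(1)Yb, needed in niche cells, had -0.51 (adjusted p = 0.368), and the EGF receptor gene Egfr had -0.57 (adjusted p = 0.265). A label of niche expression cannot be checked further in whole ovaries, because dpp, tkv, Dad and brk are also expressed in follicle cells.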

How the data were processed

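Total RNA of ovaries was labelled with biotin and hybridized to tiling arrays, 3 per group. The authors deposited 1 normalized intensity per RefSeq transcript and array, per the labels. Their tool, probes and genome build were not given in the sources used. Of 21158 entries, 393 at 0 on every array were left out, and log2 was taken with no pseudocount. The row with the highest mean stood for each gene name. Groups were compared with limma 3.58.1 in R 4.3.3 (lmFit, eBayes with trend and robust options), two-sided, with Benjamini-Hochberg adjustment over all 14012 genes. The fit was also run on simulated data with independent normal noise whose spread followed intensity, which does not check the calls on these arrays. Gene lists hold 113 names, all matched, 14 of them through RefSeq accessions of the Release 6 annotation (names only). The genes named are the 9 members, Hel25E and vas, up to 4 genes of each list by smallest p, and the genes of closest pattern. Other named genes are marked. The members, lists and fit were chosen with earlier results of these data known. Alternatives were another normalization, centring, a replicate block, each array left out, no trend, no robust option, a pseudocount of 16, a filter at the 25th percentile, the mean over rows, joining by accession and a threshold of 0.01. Transposon tables were not used.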

Additional observations from a re-analysis of the deposited data

How the results depend on the processing

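None of the 9 Dpp/BMP genes passed under any of 16 alternatives. Of 135 single values of the 9 genes under these settings, 133 kept their sign, and tkv changed sign without uap56 replicate 3 (0.0279) and without vasa replicate 2 (0.0331), with -0.26 as its lowest value when an array was left out. Hel25E changed sign without uap56 replicate 3 (0.00399), and its lowest value with an array left out was -0.31. The median of the 9 genes lay between 0.15 and 0.40 with an array left out, and the ratio of Dad to brk between -1.30 and -0.73. Of all genes 504 passed, against 54 at a threshold of 0.01, 2 without trend and robust options and 203 with the replicate block, and between 65 and 477 with an array left out. Of the 52 genes in the pathway lists 4 passed, 0 without trend and robust options, 0 with the replicate block, and between 0 and 4 with an array left out. The cause was not tested. The labels do not pair the replicate numbers, and same-numbered arrays correlated between -0.03 and -0.0057 in their deviations, so the block was not used as the reported fit. With 3 arrays a group, the intervals of the 9 genes, which were 0.67 to 1.23 wide on the log2 scale, limit what could be seen. Single adjusted p-values of brk, between 0.061 and 0.266, were lowest without uap56 replicate 1.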
